A study of Mus musculus with 12 samples.

Results

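The 10 genes described here encode amino acid transporters of the plasma membrane or their partner subunit: Slc7a1, Slc7a3, Slc7a5, Slc7a11, Slc3a2, Slc38a1, Slc38a2, Slc1a4, Slc1a5 and Slc6a9. They were picked by symbol from the 23366 gene symbols of a deposited RNA-seq count table, with the transcript of highest total count taken for each symbol. All 10 passed the filter on low counts that left 13882 genes for testing, Slc7a3 through its wild-type libraries alone.

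The libraries came from C57BL/6 mouse embryonic fibroblasts (MEFs, primary cells grown from embryos) at passages 3 to 5. There were 4 groups of 2 libraries. KO-GS were Carm1 knockout cells after 18 h of glucose starvation, KO were knockout cells in rich medium, WT-GS were wild-type cells after 18 h of glucose starvation, and WT were wild-type cells in rich medium. Carm1 encodes a protein arginine methyltransferase that acts on histone H3. Rich medium was DMEM with 10% fetal bovine serum and starvation medium was glucose-free DMEM with 10% dialyzed serum, applied after a rinse in phosphate-buffered saline, so the effect of glucose and that of serum dialysis cannot be told apart. The rich libraries carry a time of 0 h in their titles, so time in culture after the change of medium also differed. The labels do not say how the knockout was made, whether embryos were pooled, or whether replicates were separate cultures. The p-values therefore measure the spread between replicate libraries, pooled over the 4 groups, and that spread may be technical.

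Cells take up amino acids through families of solute carriers that differ in the charge of their substrates, in sodium coupling and in whether they exchange one amino acid for another. Several of the genes are known targets of ATF4, the transcription factor whose translation increases when the kinases of the integrated stress response phosphorylate eIF2alpha, as happens when an amino acid or glucose runs short. Slc3a2 encodes the heavy chain (4F2hc, CD98) that carries light chains such as LAT1 (Slc7a5) and xCT (Slc7a11) to the cell surface, and the other genes encode transporters that work without it.

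Total counts over genes were 26641111 and 24312462 in KO-GS, 8447014 and 21529669 in KO, 24324115 and 28155431 in WT-GS, and 20495129 and 26907502 in WT. The KO replicates stood further apart than those of the other groups: the SD of the log2 ratio between replicates, over genes at 10 CPM or more (CPM, counts scaled to a common library size), was 0.123 in KO-GS, 0.748 in KO, 0.135 in WT-GS and 0.125 in WT. KO replicate 1 was also the shallowest library. The tests below use 1 estimate of spread per gene for all 4 groups. Their SEs and p-values thus do not measure the spread of the 2 groups compared alone. The wider KO spread enters comparisons without KO, and is averaged with the narrower spread of the other groups in comparisons with it. Carm1 itself stood at 53.9 and 58.6 CPM in KO-GS and 48.1 and 70.8 CPM in KO, against 176 and 164 CPM in WT-GS and 207 and 204 CPM in WT, in counts over the whole transcript that do not show which part was deleted. The genotypes also differed in fibroblast markers, where the summed level of 10 genes was 17332 and 16877 CPM in KO-GS, 16539.9 and 19804 CPM in KO, 8129 and 7921 CPM in WT-GS, and 11389 and 11322 CPM in WT. Fn1 was the largest part of these sums in the knockout, at 10588 and 10327 CPM in KO-GS and 9078 and 10149 CPM in KO. It stood at 3221 and 2594 CPM in WT-GS and 3419 and 3318 CPM in WT. No fibroblast marker was at 0, but Thy1 and Dcn were each below 1 CPM in all 4 wild-type libraries and above 100 CPM in all 4 knockout libraries. Of the 10 fibroblast markers, 8 were higher and 1 was lower in the knockout after starvation, where 27.8% of all tested genes were higher and 26.8% lower. In rich medium 7 were higher and 1 was lower, where 23.4% of all tested genes were higher and 20.7% lower. The lower one was Col1a1, at 657 and 636 CPM in KO-GS and 804 and 1206 CPM in KO, against 1400.2 and 1506 CPM in WT-GS and 2775 and 2807 CPM in WT. On starvation 3 of the 10 fell in knockout cells and 5 in wild-type cells, and 0 rose in either by the test described below. Of all tested genes 9.77% fell and 8.44% rose in knockout cells, and 18% fell and 14.8% rose in wild-type cells. The 6 neural and glial markers, mostly Nes, summed to 758 and 753 CPM in KO-GS, 641 and 701 CPM in KO, 236 and 227 CPM in WT-GS, and 694 and 782 CPM in WT, with Sox10 at 0 in the KO-GS, KO and WT libraries and Gfap at 0 in the KO-GS and WT-GS libraries. The part of these markers in the starvation results was not tested. Cdh5, an endothelial cadherin, stood at 237 and 240.3 CPM in KO-GS and 126 and 154 CPM in KO, against 0 and 0.0346 CPM in WT-GS and 0 and 0.0713 CPM in WT. The 6 endothelial markers summed to 242 and 245 CPM in KO-GS, 132 and 158 CPM in KO, 3.87 and 5.3 CPM in WT-GS, and 2.09 and 2.35 CPM in WT, nearly all Cdh5 in the knockout, and Tie1 was at 0 in every library. Kdr, of the same list, went the other way, at 0.0802 and 0.0861 CPM in KO-GS and 0 and 0 in KO, against 3.47 and 4.5 CPM in WT-GS and 1.81 and 1.78 CPM in WT. The 6 leukocyte markers summed to 23.9 and 26.5 CPM in KO-GS, 15 and 33.6 CPM in KO, 7.89 and 7.76 CPM in WT-GS, and 5.58 and 5.67 CPM in WT, with Ptprc, Itgam and Emr1 at 0 in the wild-type libraries. Cd68, of the same list, was lower in KO-GS than in WT-GS and stood at 1.24 and 1.72 CPM in KO-GS and 1.72 and 1.48 CPM in KO, against 4.98 and 5.09 CPM in WT-GS and 2.04 and 2.46 CPM in WT. Xist, the RNA of the inactive X chromosome, had 6 and 0 counts in KO-GS and 3 and 0 in KO, against 20253 and 19683 in WT-GS and 18657 and 23751 in WT. Every genotype difference below therefore compares cells that also differed in these genes, and the part of the cells' origin in it cannot be told apart from that of Carm1.

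Starved cells of both genotypes had more RNA of 5 of the transporters, and starved wild-type cells had more of 2 further ones. Below, levels are CPM on library sizes scaled by the trimmed mean of M-values, fold changes are log2 ± SE, and adjusted p-values are those of edgeR's quasi-likelihood test with Benjamini-Hochberg adjustment over all tested genes, with 0.05 as the threshold. In knockout cells 5 of 10 rose (Slc7a1, Slc7a5, Slc3a2, Slc1a4 and Slc6a9) and 0 fell, where 8.44% of all tested genes rose and 9.77% fell (18.2% called in either direction). At an unadjusted p under 0.05 the count of those that fell was also 0, as it was with DESeq2 and with limma-voom. In wild-type cells 7 of 10 rose, the same 5 with Slc7a3 and Slc7a11, and 0 fell, where 14.8% of all genes rose and 18% fell (32.8% called in either direction). The count of those that fell there was also 0 at an unadjusted p under 0.05, with DESeq2 and with limma-voom. With library quality weights in limma-voom, or with only the 4 wild-type libraries in the edgeR fit, which leaves out the spread between the KO replicates, 9 rose (those 7 with Slc38a1 and Slc38a2) and 1 fell (Slc1a5). Those fits called 9397 and 9332 of all genes, of which 4693 and 4716 rose. The 8-library edgeR fit called 4560, of which 2060 rose. The median log2 fold change of the 10 transporters was 0.93 in knockout cells and 1.20 in wild-type cells, against 0.00 over all genes in each. Taken by library, both starved libraries lay above both rich ones for 7 of the 10 in knockout cells and below them for 0, where 28.7% of all genes were apart upward, 26.6% downward and 55.3% either way. In wild-type cells they lay above for 9 and below for 1, where 41% of all genes were apart upward, 40.8% downward and 81.8% either way. These are levels of RNA in bulk samples, in which fewer cells of a type and less RNA per cell cannot be told apart.

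The count in knockout cells depends on the libraries fitted. A fit of the 4 knockout libraries alone called 0 of the 10 and 0 of all genes, while 5 of the 10 and 2803 genes lay under an unadjusted p of 0.05 in that edgeR fit. Without KO-GS replicate 2 the count was 2, where 1.85% of all genes were called. Without KO replicate 1 the 5 fold changes ran from 1.15 (Slc7a5) to 1.81 (Slc3a2). Without KO replicate 2 they ran from 1.63 (Slc1a4) to 2.35 (Slc3a2). In the 8 fits that left out 1 library each, the 5 fold changes stayed positive.

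**Figure D1:**
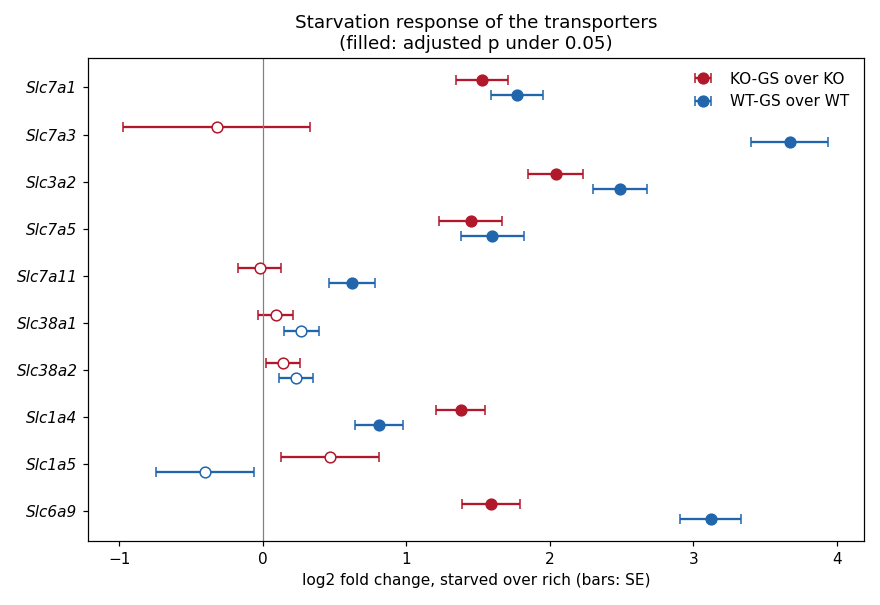
Log2 fold change of each transporter on starvation (x axis, starved over rich; bars, SE) in knockout cells (KO-GS over KO, red) and wild-type cells (WT-GS over WT, blue), with 2 libraries per group and filled points for adjusted p under 0.05. Apart from Slc7a3, the widest gap between genotypes is that of Slc6a9, at 1.59 in knockout cells and 3.12 in wild-type cells. Slc7a3 lies at -0.32 and 3.67, where the knockout value rests on 2 to 7 counts per library and no response could be measured.

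Slc7a1 encodes CAT1, the widely expressed carrier of arginine and lysine. It stood at 304 and 323 CPM in KO-GS, 89.3 and 127 CPM in KO, 487 and 452 CPM in WT-GS, and 137 and 139 CPM in WT. Every starved library was above every rich library, and each knockout group was below its wild-type counterpart with no overlap. Slc7a1 rose by 1.53 ± 0.18 in knockout cells (adjusted p = 0.00301) and by 1.77 ± 0.18 in wild-type cells (adjusted p = 0.000763). The responses differed by -0.24 ± 0.25, knockout minus wild type, which did not pass the test (adjusted p = 0.574). Between genotypes it differed by -0.58 ± 0.18 after starvation, lower in KO-GS than in WT-GS (adjusted p = 0.0254), a call lost when any library other than the KO libraries was left out, and it differed by -0.35 ± 0.18 in rich medium (adjusted p = 0.149).

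Slc7a3 encodes CAT3, a second carrier of cationic amino acids, and lies on chromosome X. It had 2 and 7 counts in KO-GS and 2 and 5 counts in KO, against 2302 and 2740 counts in WT-GS and 177 and 180 counts in WT. In CPM this was 0.0802 and 0.301 in KO-GS, 0.246 and 0.232 in KO, 91.7 and 94.9 in WT-GS, and 8.23 and 6.42 in WT. The RNA was thus near the limit of detection in all 4 knockout libraries, where 3 counts are worth 0.107 to 0.355 CPM over the series, and well above it in all 4 wild-type libraries. From summed counts, WT-GS exceeded WT by 13-fold (exact 95% interval 11.6 to 14.5, counting error only), and the edgeR rise was 3.67 ± 0.27 (adjusted p = 0.000291). In knockout cells the ratio of summed counts was 0.793 with an interval of 0.263 to 2.5, so a change smaller than these bounds was not detectable at this depth. Summed counts in KO were lower than in WT by a factor of 30.6 (14.7 to 76.5), and in KO-GS lower than in WT-GS by a factor of 500 (263 to 1090). Because Slc7a3 was tested only by virtue of its wild-type libraries, its fitted genotype differences are given as descriptions: -4.92 in rich medium, and -8.92 after starvation, with -8.25 without KO-GS replicate 1 and -10.09 without KO-GS replicate 2. The fitted difference between the starvation responses was -4.00, with -3.34 and -5.16 without those libraries in turn, and since a knockout response could not be measured at 2 to 7 counts, it does not show that the responses differ. Xist, from the same chromosome, separated the same libraries, and its part in the Slc7a3 difference was not tested.

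**Figure D2:**
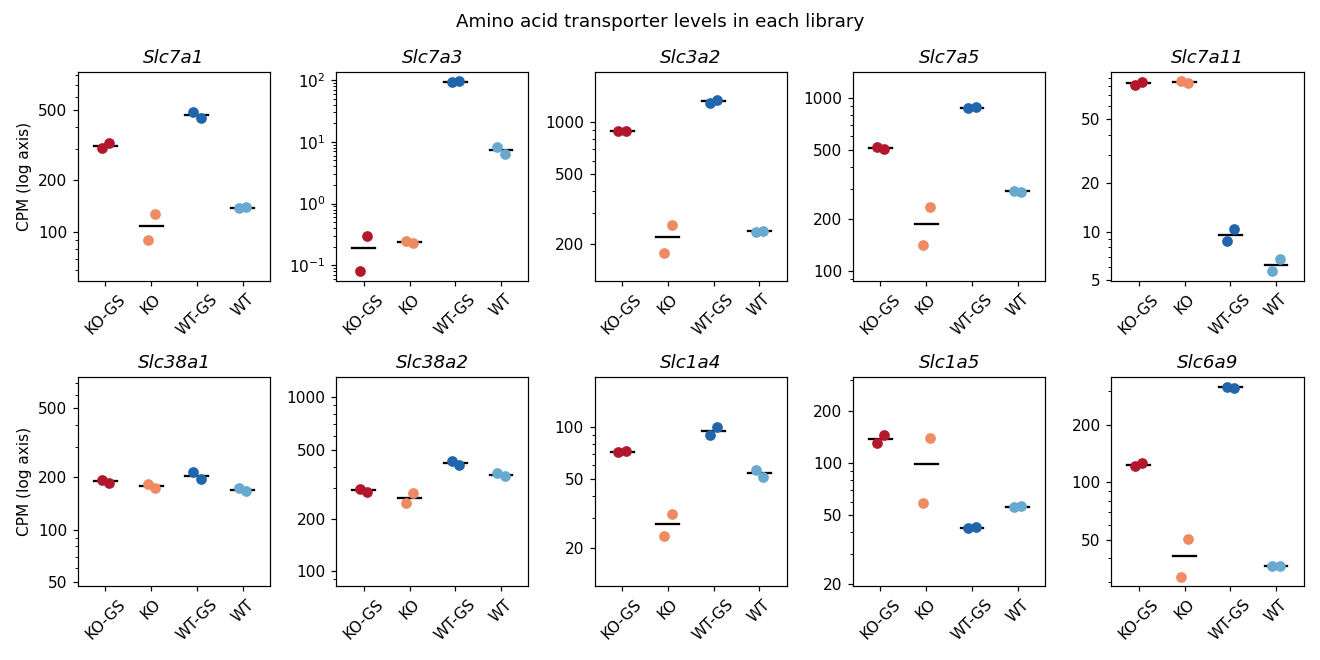
Level of each transporter in each library (y axis, CPM on a log scale that differs between panels; points, libraries; lines, means of 2). Slc7a3 is at or below 0.301 CPM in the 4 knockout libraries, while Slc7a11 is at 81.4 CPM or more in them and at 10.4 CPM or less in the wild-type libraries.

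Slc3a2, the heavy chain, stood at 889 and 895 CPM in KO-GS, 176 and 257 CPM in KO, 1293 and 1351 CPM in WT-GS, and 234 and 235 CPM in WT. Starved libraries lay above rich libraries in both genotypes, and the KO and WT libraries overlapped. It rose by 2.04 ± 0.19 in knockout cells (adjusted p = 0.00146) and by 2.49 ± 0.19 in wild-type cells (adjusted p = 0.00033). The genotypes differed by -0.11 ± 0.18 in rich medium (adjusted p = 0.64) and by -0.57 ± 0.18 after starvation (adjusted p = 0.0328), and the second call was lost when any library other than the KO libraries was left out. The table holds 2 transcripts of Slc3a2, the smaller total being 99.6% of the larger.

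Slc7a5 encodes LAT1, which brings in leucine and other large neutral amino acids in exchange for intracellular ones. It stood at 519.6 and 504 CPM in KO-GS, 141 and 234 CPM in KO, 871 and 882 CPM in WT-GS, and 291 and 288 CPM in WT. The order of the groups was WT-GS, KO-GS, WT and KO from high to low, with no overlap between neighbours. Slc7a5 rose by 1.45 ± 0.22 in knockout cells (adjusted p = 0.00723) and by 1.60 ± 0.22 in wild-type cells (adjusted p = 0.0025). The knockout value was 1.15 without KO replicate 1 and 1.87 without KO replicate 2, and its call was lost when either KO-GS library was left out. Between genotypes it differed by -0.62 ± 0.22 in rich medium (adjusted p = 0.0553), which passed in 8 of the alternatives. After starvation it was lower in KO-GS than in WT-GS by 0.78 ± 0.22 (adjusted p = 0.0206), a call lost when any KO-GS or WT-GS library was left out.

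Slc7a11 encodes xCT, the light chain that imports cystine in exchange for glutamate and so feeds glutathione synthesis. It stood at 81.4 and 85.1 CPM in KO-GS, 85.5 and 83.1 CPM in KO, 8.77 and 10.4 CPM in WT-GS, and 5.67 and 6.77 CPM in WT. All 4 knockout libraries lay far above all 4 wild-type libraries, and KO-GS and KO overlapped. Slc7a11 was higher in knockout cells by 3.76 ± 0.17 in rich medium (adjusted p = 1.17e-05) and by 3.12 ± 0.16 after starvation (adjusted p = 1.38e-05). It rose by 0.62 ± 0.16 on starvation of wild-type cells (adjusted p = 0.0236), a call lost when any KO-GS, WT-GS or WT library was left out. In knockout cells the starvation value was -0.02 ± 0.15 (adjusted p = 0.967), and the 2 responses differed by -0.64 ± 0.22 (adjusted p = 0.101). Its KO-GS and KO libraries overlapped, whereas those of the heavy chain and of Slc7a5 did not.

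Because these genes are known or proposed targets of ATF4, their promoter windows were searched for the core of the C/EBP-ATF response element, TGATGNAA, on both strands. RefSeq windows of 300 bases (250 before to 50 after a start, build GRCm38.p6) were held for 6 of the 10: Slc7a1, Slc3a2, Slc7a11, Slc38a2, Slc1a4 and Slc6a9. These 6 genes had 9 windows, and an element outside the windows would not be found. Matches were found for 2 of these 6 genes. At least 1 match was present in 1304 (3.97%) of all 32851 windows and 2 or more in 23 (0.07%), shares that count windows and not genes. The Slc7a11 window held 2, from -66 to -59 on the gene strand and from -47 to -40 on the opposite strand, and the Slc1a4 window held 1, from -4 to 4 on the opposite strand. The stretches around them are shown 5′ to 3′ on the gene strand, with the matches in capitals, because they are the places in these windows where the letters of the element occur. The Slc7a11 stretch is chr3:50443634-50443703 and the Slc1a4 stretch is chr11:20332710-20332769, both on the minus strand.
Slc7a11: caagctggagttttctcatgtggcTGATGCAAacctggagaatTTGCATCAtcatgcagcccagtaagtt
Slc1a4: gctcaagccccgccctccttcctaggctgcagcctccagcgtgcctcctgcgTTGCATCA
A match is a run of letters and not a measured binding site. On starvation Slc7a11 stood at -0.02 ± 0.15 in knockout cells and 0.62 ± 0.16 in wild-type cells. Slc1a4 rose by 1.38 ± 0.17 in knockout cells (edgeR adjusted p = 0.0038) and by 0.81 ± 0.17 in wild-type cells. Of the searched genes without a match, Slc7a1, Slc3a2 and Slc6a9 rose in both genotypes, and Slc38a2 passed the test in neither in the 8-library fit. Any part of the matches in these responses was not tested.

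Slc38a1 and Slc38a2 encode SNAT1 and SNAT2, sodium-coupled carriers of glutamine, alanine and other small neutral amino acids. Slc38a2 is known as a gene induced by lack of amino acids. Slc38a1 stood at 194 and 186 CPM in KO-GS, 184 and 173 CPM in KO, 214 and 196 CPM in WT-GS, and 173 and 167 CPM in WT. Its 8 libraries lay within a narrow range, and it passed the test in no comparison of the 8-library fit: 0.09 ± 0.12 on starvation of knockout cells, 0.27 ± 0.12 in wild-type cells, 0.07 ± 0.12 between genotypes in rich medium and -0.11 ± 0.12 after starvation. In rich medium the value was -0.02 with total counts as the scaling. The table holds 3 transcripts of Slc38a1, with totals from 98.8% to 100% of the highest. Slc38a2 stood at 298 and 286 CPM in KO-GS, 248 and 282 CPM in KO, 432 and 409 CPM in WT-GS, and 367 and 352 CPM in WT. Every knockout library was below every wild-type library, and within each genotype the starved libraries were above the rich ones. The starvation values did not pass the test, at 0.14 ± 0.12 in knockout cells (adjusted p = 0.469) and 0.23 ± 0.12 in wild-type cells (adjusted p = 0.199); the second passed it in a fit of the 4 wild-type libraries, and the first without KO replicate 2. The genotype differences did, at -0.44 ± 0.12 in rich medium (adjusted p = 0.0243) and -0.53 ± 0.12 after starvation (adjusted p = 0.00899). The first was lost when any library other than the KO libraries was left out, in limma-voom with library quality weights and in a fit of the 4 rich libraries alone, and the second without either KO-GS library or WT-GS replicate 1.

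Slc1a4 and Slc1a5 encode ASCT1 and ASCT2, sodium-dependent exchangers of neutral amino acids. ASCT1 carries serine, alanine and cysteine, and ASCT2 is a main route of glutamine into many cells. Slc1a4 stood at 71.4 and 72.8 CPM in KO-GS, 23.4 and 31.7 CPM in KO, 89.4 and 100.1 CPM in WT-GS, and 56.5 and 51.7 CPM in WT. The groups ran WT-GS, KO-GS, WT and KO from high to low, with no overlap. Slc1a4 rose by 1.38 ± 0.17 in knockout cells and by 0.81 ± 0.17 in wild-type cells (adjusted p = 0.0109), the second call being lost without any WT-GS or WT library and the first without KO-GS replicate 2. The responses differed by 0.57 ± 0.24, which did not pass the test (adjusted p = 0.161). Slc1a4 was lower in KO than in WT by 0.97 ± 0.17 (adjusted p = 0.00385). After starvation the genotypes differed by -0.39 ± 0.17 (adjusted p = 0.0828), a value that passed in 6 of the alternatives.

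Slc1a5 stood at 131 and 145 CPM in KO-GS, 58.8 and 139 CPM in KO, 42.1 and 42.6 CPM in WT-GS, and 55.5 and 56.6 CPM in WT. The 2 KO libraries were the furthest apart of any group, and KO replicate 2 lay within the range of KO-GS while KO replicate 1 lay near WT. The starvation value in knockout cells was 0.47 ± 0.34 (adjusted p = 0.369), with 0.01 without KO replicate 1 and 1.24 without KO replicate 2, where the call was gained. In wild-type cells the starved libraries lay below the rich ones and the value was -0.40 ± 0.34 (adjusted p = 0.405), which did not pass the test in the fit of 8 libraries and did in that of the 4 wild-type libraries, with -0.41. After starvation Slc1a5 was higher in knockout cells by 1.70 ± 0.35 (adjusted p = 0.00527), and in rich medium the difference was 0.82 ± 0.34 (adjusted p = 0.0895), which passed in 3 of the alternatives: DESeq2, limma-voom with library quality weights, and edgeR without KO replicate 1.

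Slc6a9 encodes GLYT1, the sodium- and chloride-coupled glycine transporter. It stood at 122 and 126 CPM in KO-GS, 32 and 50.2 CPM in KO, 318 and 311 CPM in WT-GS, and 36.2 and 36.5 CPM in WT. Rich libraries of both genotypes overlapped, and the starved libraries separated by genotype. Slc6a9 rose by 1.59 ± 0.20 in knockout cells (adjusted p = 0.00409) and by 3.12 ± 0.21 in wild-type cells (adjusted p = 0.000233). The responses differed by -1.53 ± 0.28 (adjusted p = 0.0158), a call lost when any library other than the KO libraries was left out. The genotypes differed by 0.19 ± 0.20 in rich medium (adjusted p = 0.478), with -0.19 without KO replicate 2. After starvation Slc6a9 was lower in KO-GS than in WT-GS by 1.34 ± 0.20 (adjusted p = 0.00126). The knockout starvation call was lost without KO-GS replicate 2.

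The genotype comparisons ask how the transporters differ between knockout and wild-type cells, in starved and in rich medium. After starvation 2 of 10 were higher in the knockout (Slc7a11 and Slc1a5) and 6 were lower (Slc7a1, Slc7a5, Slc3a2, Slc38a2 and Slc6a9, and Slc7a3, which was tested only through its wild-type libraries), where 27.8% of all tested genes were higher and 26.8% lower (54.6% either way). In rich medium 1 was higher (Slc7a11) and 3 were lower (Slc38a2, Slc1a4 and, with the same limit, Slc7a3), where 23.4% of all genes were higher and 20.7% lower (44.1% either way). Taken by library, the knockout lay above wild type for 2 of the 10 and below it for 8 after starvation, where 44.1% of all genes were apart upward, 45.5% downward and 89.6% either way. In rich medium it lay above for 2 and below for 5, where 34.1% of all genes were apart upward, 35.8% downward and 69.9% either way. A call between genotypes, or libraries that do not overlap, was thus common among all genes. Scaling by total counts moved the median of all genes after starvation to -0.14. The median log2 difference of the 10 was -0.55 after starvation and -0.23 in rich medium, against -0.02 and 0.00 over all genes. Without KO-GS replicate 1, KO-GS replicate 2 or WT-GS replicate 1, 4 were called after starvation in each case, where 35.9%, 36.5% and 37.6% of all genes were called, and without WT-GS replicate 2 the count was 5, where 36.4% were. In rich medium 7 were called without KO replicate 1 and 7 without KO replicate 2, where 65.8% and 72.7% of all genes were called, so 7 of 10 is near the share of all genes.

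**Figure D3:**
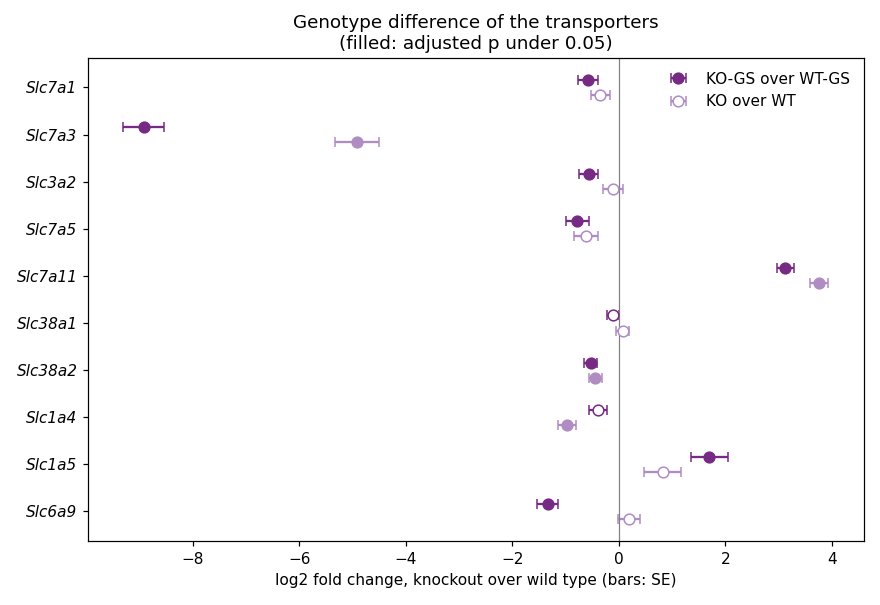
Log2 fold change of each transporter between genotypes (x axis, knockout over wild type; bars, SE) after starvation (KO-GS over WT-GS, dark) and in rich medium (KO over WT, light), with 2 libraries per group and filled points for adjusted p under 0.05. Slc7a11 lies at 3.12 and 3.76 and Slc7a3 at -8.92 and -4.92, and the other 8 lie between -1.34 and 1.70.

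The test of the difference between the starvation responses called 2 of 10: Slc6a9, which rose less in knockout cells, and Slc7a3, which rose in wild-type cells and was near the limit of detection in knockout cells. In this test 5.91% of all genes had a lower response in the knockout and 7.43% a higher one (13.3% either way). The count of 2 of 10 is thus near the share of all genes. Slc7a3 is in it only through its wild-type libraries, and its call does not show that the responses differ. With DESeq2 and with limma-voom the count was also 2, and with library quality weights it was 1. It was 0 in the edgeR fits that left out any WT-GS or WT library, in which 2 or 3 transporters were under an unadjusted p of 0.05, and 1 without either KO-GS library. Without KO replicate 1 it was 8, where 49.4% of all genes were called, and without KO replicate 2 it was 6, where 56.4% were. For Slc7a1, Slc7a5 and Slc38a2 the sign of the difference turned without KO replicate 2, to 0.05, 0.27 and 0.02.

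Over the 8 libraries, the transporters that rose in both genotypes correlated with each other. They were grouped by their rise in these same libraries, so the correlation is no separate support for the grouping. Pearson's r of log2 CPM was 0.99 between Slc7a1 and Slc3a2, 0.98 between Slc7a1 and Slc7a5, 0.98 between Slc3a2 and Slc6a9, and 0.96 between Slc7a5 and Slc1a4. The lowest were 0.87 between Slc3a2 and Slc1a4 and 0.82 between Slc1a4 and Slc6a9. For Slc38a1, which did not pass the test, r with these genes ran from 0.58 (Slc1a4) to 0.87 (Slc6a9). Among the others, r was 0.94 between Slc7a3 and Slc38a2, 0.79 between Slc7a11 and Slc1a5, and -0.87 between Slc7a3 and Slc7a11. These values describe 8 libraries in 4 groups, and each pair of genes shares the libraries, so they describe mainly the order of the group means.

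**Figure D4:**
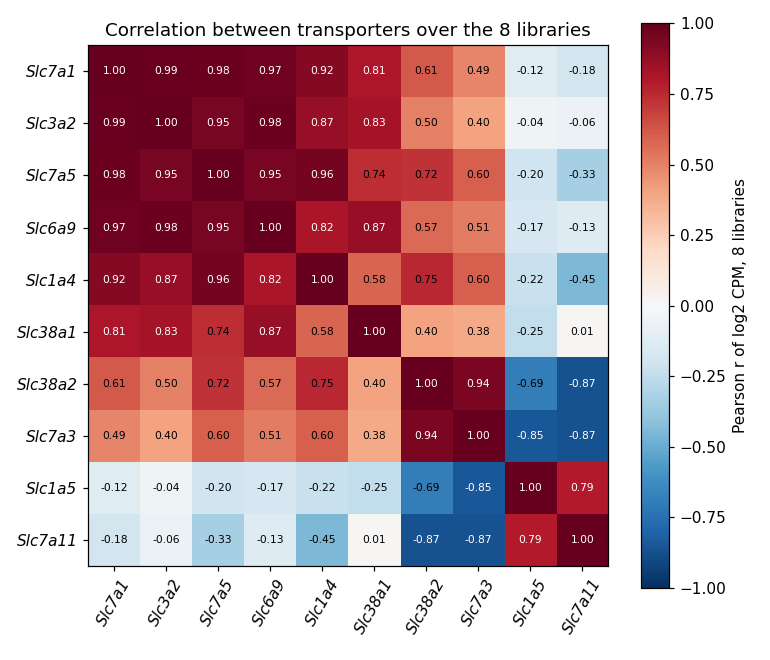
Pearson's r of log2 CPM between each pair of transporters over the 8 libraries (both axes, genes; color, r from -1 to 1). Slc7a1, Slc3a2, Slc7a5, Slc6a9 and Slc1a4 form a block of high values, and Slc7a11 and Slc1a5 stand apart from it.

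The genes whose profile was most like each transporter were found among genes with a mean of 5 CPM or more in a group, by Pearson's r over the same 8 libraries. Symbols such as those with Gm, Rik, LOC, Mir or Snor were left out. Each r is the highest of a search over many genes in 4 groups, so high values can arise without shared regulation, which was not tested. Slc38a7, which encodes a lysosomal exporter of glutamine and asparagine, was closest to Slc7a1 (r = 0.999) and to the mean profile of the 10 (r = 0.997). It stood at 46.8 and 52 CPM in KO-GS, 12.2 and 19.1 CPM in KO, 82.8 and 77.6 CPM in WT-GS, and 18.4 and 20.1 CPM in WT, the same order of groups as Slc7a1. Pmaip1, which encodes the BH3-only protein NOXA, was closest to Slc7a3 (r = 0.994), and it too was at or near 0 in the knockout libraries, with 0 and 0 CPM in KO-GS, 0 and 0.0464 CPM in KO, 31.3 and 30.1 CPM in WT-GS, and 2.32 and 2.57 CPM in WT. Tnnt2, the cardiac troponin T gene, was closest to Slc7a11 (r = 0.998), and it stood at 328 and 292 CPM in KO-GS, 185 and 192 CPM in KO, 0.996 and 1.49 CPM in WT-GS, and 0.325 and 0.57 CPM in WT. The closest to the others were Got1 for Slc7a5 (0.996), Mettl22 for Slc3a2 (0.996), Klhl28 for Slc38a1 (0.971), Osbp for Slc38a2 (0.993), Fam96b for Slc1a4 (0.992), Ltbr for Slc1a5 (0.996) and Atp6v0a1 for Slc6a9 (0.995).

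Of 34 other transporters of the plasma membrane, 16 were tested, and on starvation 2 rose and 2 fell in knockout cells (median -0.00) and 2 rose and 3 fell in wild-type cells (median -0.09), near the shares of all genes, which were 8.44% and 9.77% in knockout cells and 14.8% and 18% in wild-type cells. With KO replicate 1 left out these counts rose or held, while the share of all genes called rose in both genotypes. Slc1a3, a glutamate transporter, stood at 20.9 and 20.9 CPM in KO-GS and 89.8 and 60.6 CPM in KO, and at 4.58 and 4.54 CPM in WT-GS and 38.2 and 34.1 CPM in WT. It fell on starvation in both genotypes, by 1.84 ± 0.21 in knockout cells and by 2.98 ± 0.22 in wild-type cells (edgeR adjusted p = 0.00266 and 0.000311). Slc7a2, another cationic carrier, stood at 307 and 296 CPM in KO-GS, 197 and 140.2 CPM in KO, 22.6 and 20.2 CPM in WT-GS, and 14.7 and 12.3 CPM in WT. The knockout was above wild type in both media, by 3.82 ± 0.21 after starvation and 3.64 ± 0.21 in rich medium (edgeR adjusted p = 1.59e-05 and 2.77e-05), the opposite direction to Slc7a3. Slc38a4, a further member of the SNAT family, had 321 and 300 counts in KO-GS and 119 and 333 in KO, against 0 and 2 in WT-GS and 48 and 72 in WT. On starvation of wild-type cells its ratio of summed counts was 0.0153 (exact 95% interval 0.00183 to 0.0565, counting error only). Of 24 listed transporters of organelles, 20 were tested, and 1 rose and 2 fell in knockout cells, against 5 and 2 in wild-type cells. In knockout cells DESeq2 called 1 and 4. Without KO replicate 1 the counts were 2 rising and 11 falling in knockout cells and 7 and 9 in wild-type cells, where 49.8% and 66.8% of all genes were called. Slc38a7 rose by 1.64 ± 0.22 in knockout cells and by 2.06 ± 0.22 in wild-type cells (edgeR adjusted p = 0.00443 and 0.000891).

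Regulators of the response to amino acid lack and enzymes of amino acid synthesis were listed as well. Of 18 regulators, 8 rose and 1 fell in knockout cells (median 0.49) and 9 rose and 2 fell in wild-type cells (median 0.99), where 8.44% of all genes rose and 9.77% fell in knockout cells and 14.8% and 18% did in wild-type cells. Without KO replicate 1, 12 rose and 4 fell in knockout cells and 13 rose and 3 fell in wild-type cells, where 49.8% and 66.8% of all genes were called. Ddit3, which encodes CHOP, a transcription factor of the integrated stress response, stood at 205 and 187 CPM in KO-GS, 19.2 and 23.3 CPM in KO, 476 and 543 CPM in WT-GS, and 19.4 and 19.6 CPM in WT. It rose by 3.20 ± 0.16 in knockout cells and by 4.71 ± 0.17 in wild-type cells (edgeR adjusted p = 0.00025 and 4.54e-05). Atf3 stood at 2.09 and 2.07 CPM in KO-GS, 0 and 0.0927 CPM in KO, 86.8 and 94.8 CPM in WT-GS, and 15.4 and 13.9 CPM in WT. All 4 knockout libraries were below all 4 wild-type libraries, and Atf3 rose on starvation in both genotypes. Of 21 synthesis enzymes, 7 rose and 0 fell in knockout cells (median 0.60) and 13 rose and 1 fell in wild-type cells (median 0.87). For the knockout count, DESeq2 and limma-voom each gave 10 rising and 0 falling, and 11 rose and 1 fell at an unadjusted p under 0.05. In the fit without KO replicate 1 more of the enzymes were called in both genotypes, as were more of all genes.

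Cth, which encodes the enzyme that makes cysteine from cystathionine, stood at 183 and 187 CPM in KO-GS, 30.6 and 46.1 CPM in KO, 60.2 and 63.5 CPM in WT-GS, and 7.25 and 7.81 CPM in WT. It rose by 2.26 ± 0.20 in knockout cells and by 3.04 ± 0.21 in wild-type cells (edgeR adjusted p = 0.00135 and 0.000235). Of 12 listed glutathione genes, 10 were tested, and 3 rose and 1 fell in knockout cells, against 3 and 3 in wild-type cells, beside shares of all genes of 8.44% and 9.77% in knockout cells and 14.8% and 18% in wild-type cells. With KO replicate 1 left out more of the glutathione genes were called in both genotypes, as were more of all genes. Chac1, which encodes an enzyme that breaks glutathione down, stood at 129 and 134 CPM in KO-GS, 9.11 and 22.6 CPM in KO, 106 and 109 CPM in WT-GS, and 25.2 and 21.9 CPM in WT. Gclc, the catalytic subunit of the first enzyme of glutathione synthesis, rose in wild-type cells by 1.23 ± 0.24 (edgeR adjusted p = 0.00827) and stood at -0.15 ± 0.24 in knockout cells (edgeR adjusted p = 0.706), where KO replicate 1 was at 142 CPM and KO replicate 2 at 82.7 CPM.

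**Figure D5:**
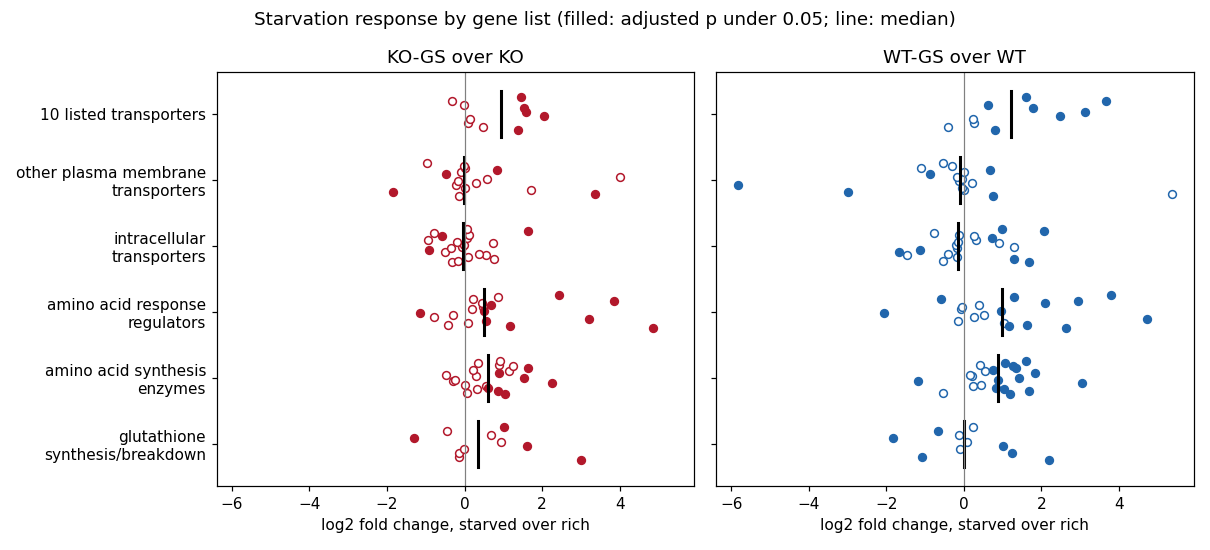
Log2 fold change on starvation (x axis) of each tested gene in 6 gene lists, in knockout cells (left) and wild-type cells (right), with filled points for adjusted p under 0.05 and lines for medians. The 10 transporters have medians of 0.93 and 1.20, and the other plasma membrane transporters have medians at or just below 0.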

How the data were processed

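RNA was measured in 8 libraries, matched to groups by their titles and to columns of 1 deposited table by name. The authors deposited reads counted per RefSeq transcript, as whole-number counts. TopHat2 2.0.9, bedtools and the mm9 build are named in the submitters' processing notes, but neither how strand nor how multi-mapping reads were handled is given in the sources used here. The table holds no transcript lengths, so levels were not compared between genes. The series' 4 chromatin samples are not analysed here.

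From 31055 transcripts, that of highest total was kept for each of 23366 symbols. Counts were tested with edgeR 4.0.16 (R 4.3.3) by its quasi-likelihood test on all 8 libraries with 1 mean per group, scaling by trimmed mean of M-values, the filterByExpr filter (13882 genes) and Benjamini-Hochberg adjustment at 0.05. The SE is the log2 fold change divided by the square root of F. The biological coefficient of variation was 18.5%. The pipeline was tested on simulated data with 200 changed genes. All groups were simulated with the same spread per gene, so that test does not cover the wider spread of the KO replicates. Intervals and floors cover counting error only. Alternatives were DESeq2 1.42.0, limma-voom (limma 3.58.1) with and without library quality weights, other scalings, no filter, the lowest-total transcript, a replicate block, only the 4 libraries compared, and leaving out each library. The replicates of every group differed by more than sampling noise.

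The transporters and the other lists were chosen with earlier results of these data known. Named beyond the transporters are genes among the 3 with the smallest p per list and comparison, and, per transporter and for their mean profile, the genes of highest correlation. Marker genes of fibroblasts, endothelium and other cells were read as levels, and Fn1, Thy1, Dcn, Col1a1, Cdh5, Kdr, Cd68 and Nes were singled out after their values were seen. The highest summed level in any library was 3.88 CPM for epithelial markers and 6.02 CPM for skeletal muscle markers.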

Additional observations from a re-analysis of the deposited data

Results flagged for a closer look

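A test of whether the genotypes responded differently to starvation singled out 2 transporters. For Slc7a3 the responses differed by -4.00 ± 0.78 on the log2 scale, knockout minus wild type (edgeR adjusted p = 0.0188), where KO-GS had 2 and 7 counts and KO had 2 and 5, against 2302 and 2740 in WT-GS and 177 and 180 in WT. Slc7a3 passed the filter on low counts only through its wild-type libraries and a knockout response could not be measured at this depth, so this value is no support for a difference in response. It was -3.34 without KO-GS replicate 1 and -5.16 without KO-GS replicate 2. For Slc6a9 the responses differed by -1.53 ± 0.28 (edgeR adjusted p = 0.0158), with 122 and 126 CPM in KO-GS and 32 and 50.2 CPM in KO, against 318 and 311 CPM in WT-GS and 36.2 and 36.5 CPM in WT. Over the alternatives the Slc6a9 value ran from -1.76 to -1.15. Its call was lost when any library other than the KO libraries was left out.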

How the results depend on the processing

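Over the single-transporter results and their alternatives, 728 values kept direction and side of the threshold, 58 kept direction and lost the call, 43 kept direction and gained one, and 10 turned direction. Most losses and gains came with single libraries left out. Where a group was left with 1 library, that library was assumed to vary like the others. The cause of the other shifts was not tested.

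Leaving out each library gave the following ranges of transporters called, in knockout starvation 2 to 7 (5 with all), in wild-type starvation 5 to 10 (7), between genotypes after starvation 4 to 9 (8) and in rich medium 3 to 7 (4), and for the difference between responses 0 to 8 (2). Over all genes the ranges were 265 to 8410 (2527), 1579 to 9561 (4560), 5127 to 11435 (7586), 3370 to 10336 (6116) and 452 to 8020 (1853), in the same order. The edgeR fits that gave 0 for the difference are described with that test above. Without KO replicate 1 more of all genes were called in every comparison, and no fewer transporters were.

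In fits of only the 4 libraries compared, the edgeR count in knockout starvation was 0 transporters and 0 genes, with 5 transporters and 2803 genes at an unadjusted p under 0.05, while DESeq2 on all libraries called 5 transporters; 9332 genes were called in wild-type starvation and 3245 between genotypes in rich medium. With library quality weights, which were 0.106 and 0.167 for the KO libraries and 1.65 to 2.2 for the others, limma-voom called 1316 genes in knockout starvation, 9397 in wild-type starvation, 3746 between genotypes in rich medium, and 1 transporter for the difference. DESeq2 called 2880 genes for the difference.

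The 10 values that turned direction all belonged to results that had not passed the test. In knockout starvation the ranges on leaving out a library were -1.49 to 0.34 for Slc7a3 and -0.04 to 0.02 for Slc7a11, which was positive without KO-GS replicate 1 (0.01) and without KO replicate 1. Between genotypes in rich medium they were -0.42 to 0.09 for Slc3a2, -0.02 to 0.11 for Slc38a1 (-0.02 also with total counts) and -0.19 to 0.42 for Slc6a9. For the difference between responses they were -0.42 to 0.05 for Slc7a1, -0.43 to 0.27 for Slc7a5 and -0.14 to 0.02 for Slc38a2. At both ends of its range the Slc7a5 value passed the test.

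The replicate numbers are not said to pair libraries, and the correlations of replicate differences between groups were -0.03 to 0.06. With a replicate block the transporters called were 5, 7, 8, 4 and 2, and no transporter's call changed; the genes called were 2111, 4123, 7360, 5799 and 1491, in the order above. Depth limits Slc7a3 in the knockout, where counts were 2 to 7.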
